A study of Mus musculus with 8 samples.

Results

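The insulin-like growth factor (IGF) genes followed here are the ligands Igf1 and Igf2, the receptors Igf1r and Igf2r, the binding proteins Igfbp2, Igfbp3, Igfbp4, Igfbp5 and Igfbp6, and the protease gene Pappa2. They were taken as every array probe set that the platform annotation maps to exactly 1 of these 10 symbols, which gave 26 of the 45101 probe sets. Igfbp4 has 6 probe sets, Igf1r 5, Igf1 4, Igf2, Igf2r, Igfbp3 and Igfbp5 2 each, and Igfbp2, Igfbp6 and Pappa2 1 each. A further probe set shared by Igf2r and the gene Airn was left out by this rule.

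The samples were primary chondrocytes, the cells that form cartilage, freed with collagenase and trypsin from the ribs of FVB mouse embryos at stage E18.5. There were 4 control samples, labelled wild type, and 4 samples labelled Hoxc8 transgenic. Embryos of 4 litters were sorted by genotype, 1 sample per litter and genotype, and litters 1 to 4 are replicates 1 to 4 of both groups. The promoter of the transgene, the number of embryos in a sample and their sex are not stated in the labels.

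IGFs are secreted growth factors that act through the receptor tyrosine kinase encoded by Igf1r, while the Igf2r product binds Igf2 and carries it to lysosomes. Most IGF in tissue is held by binding proteins, which limit or prolong its action, and proteases such as the Pappa2 product release it by cutting them. In growing cartilage the pathway drives proliferation and enlargement of chondrocytes, and Igf2 is an imprinted gene of high fetal activity.

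Markers of the labelled cell type were looked at first. All 8 chondrocyte markers listed passed the signal filter described below, among them Col2a1 with a mean signal of 44130.2. All 8 skeletal muscle and all 8 perichondrium and fibroblast markers passed as well, among the latter Col3a1 at 37757. Passing this filter therefore does not tell chondrocytes from other cells. Of 54 markers of chondrocytes and of other cells in a rib digest, 0 were at 0 and 6 lay under the filter, namely Cd68, C1qa, Hba-a1, Epb42, Camp and Elane. The arrays of litter 4 stood apart in a measure of RNA integrity, the ratio of 5-prime to 3-prime signal of control probe sets. For beta-actin this ratio was 0.59, 0.607, 0.641 and 0.512 in control litters 1 to 4 and 0.591, 0.605, 0.647 and 0.475 in transgenic litters 1 to 4. For Gapdh it was 1.32, 1.26, 1.35 and 1.17 in control and 1.29, 1.31, 1.36 and 1.14 in transgenic samples of the same litters. Litter 4 was the lowest in both genotypes and for both transcripts. The targeted gene Hoxc8 had signals of 4112, 3066, 3755 and 3143 in control and 4096, 3400.0, 3810.4 and 4235 in transgenic samples of litters 1 to 4. Transgenic over control gave ratios of 0.996, 1.11, 1.01 and 1.35 in litters 1 to 4. These ranges overlap, and the difference of 0.15 log2 (SE 0.12) did not pass (limma adjusted p = 0.9999), and whether this probe set reads the transgene is not stated, so that it is a weak check of the genotype labels. In bulk samples such as these, fewer cells of a type and less RNA per cell cannot be told apart.

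Since the transgene encodes a homeobox transcription factor, the 250 bases upstream of the annotated starts were searched for TAAT, the core that homeodomain proteins bind, on both strands. The RefSeq table of build GRCm38.p6 held 14 such windows for the 10 genes, and 3 of them (21.4%) held a match, against 54.9% of all 32851 windows. The windows of the 10 genes had 47.6 to 77.6% G and C, and the median of all windows was 52.4%. The 3 windows with a match, of 2 of the 4 Igf2 starts and of the Pappa2 start, are shown on the minus strand that these genes are read from, 5′ to 3′, with TAAT or its reverse complement in capitals.
Igf2 chr7:142661272-142661521: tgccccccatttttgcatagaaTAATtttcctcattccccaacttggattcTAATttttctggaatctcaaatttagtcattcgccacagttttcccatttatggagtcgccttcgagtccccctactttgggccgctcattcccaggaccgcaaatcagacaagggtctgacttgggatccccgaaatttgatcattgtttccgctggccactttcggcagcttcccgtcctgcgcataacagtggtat
Igf2 chr7:142666817-142667066: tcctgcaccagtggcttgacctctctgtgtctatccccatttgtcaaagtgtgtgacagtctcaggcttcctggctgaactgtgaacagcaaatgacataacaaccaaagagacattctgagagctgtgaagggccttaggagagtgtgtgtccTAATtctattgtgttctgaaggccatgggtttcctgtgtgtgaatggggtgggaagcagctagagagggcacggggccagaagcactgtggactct
Pappa2 chr1:158958176-158958425: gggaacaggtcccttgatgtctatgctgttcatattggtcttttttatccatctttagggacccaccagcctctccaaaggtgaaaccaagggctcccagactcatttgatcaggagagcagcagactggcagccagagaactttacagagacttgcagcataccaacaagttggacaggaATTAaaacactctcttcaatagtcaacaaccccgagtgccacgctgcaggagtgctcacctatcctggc
The match is a string of letters and not a measured binding site, and a window without it says nothing of Hoxc8.

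None of the 10 IGF genes passed the test of transgenic against control samples. Between litters, both Igf2 probe sets and 1 probe set each of Igf1r, Igf2r and Igfbp4 passed in the fit described below. The brightest Igf1r and Igfbp4 probe sets did not pass it (limma F-test, adjusted p = 0.182 and 0.375). Nor did the other Igf2r probe set (adjusted p = 0.64). Transgenic and control samples were compared for each probe set on log2 values, after adding an offset of 22.2 signal units, with limma over the 22495 probe sets whose mean signal was at least 110.4. Of the 26 IGF probe sets 25 were tested, at least 1 for each of the 10 genes. By limma 0 of 25 passed an adjusted p of 0.05 and 0 had an unadjusted p under 0.05, where 0.0% and 1.08% of all tested probe sets did. With litter as a block, which compares the genotypes within litters, 0 of 25 passed and 1 had an unadjusted p under 0.05, against 0.0% and 3.33% of all. Differences were negative for 17 and positive for 8 of the 25 probe sets, with a median of -0.053 log2, beside 51.2% negative and a median of -0.0035 over all tested. Taking the brightest probe set of each gene, 7 genes were negative and 3 positive. The signals of both genotypes overlapped for each of the 25. Of all tested probe sets only 1.02% had no overlap, so this does not set the IGF probe sets apart.

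**Figure D1:**
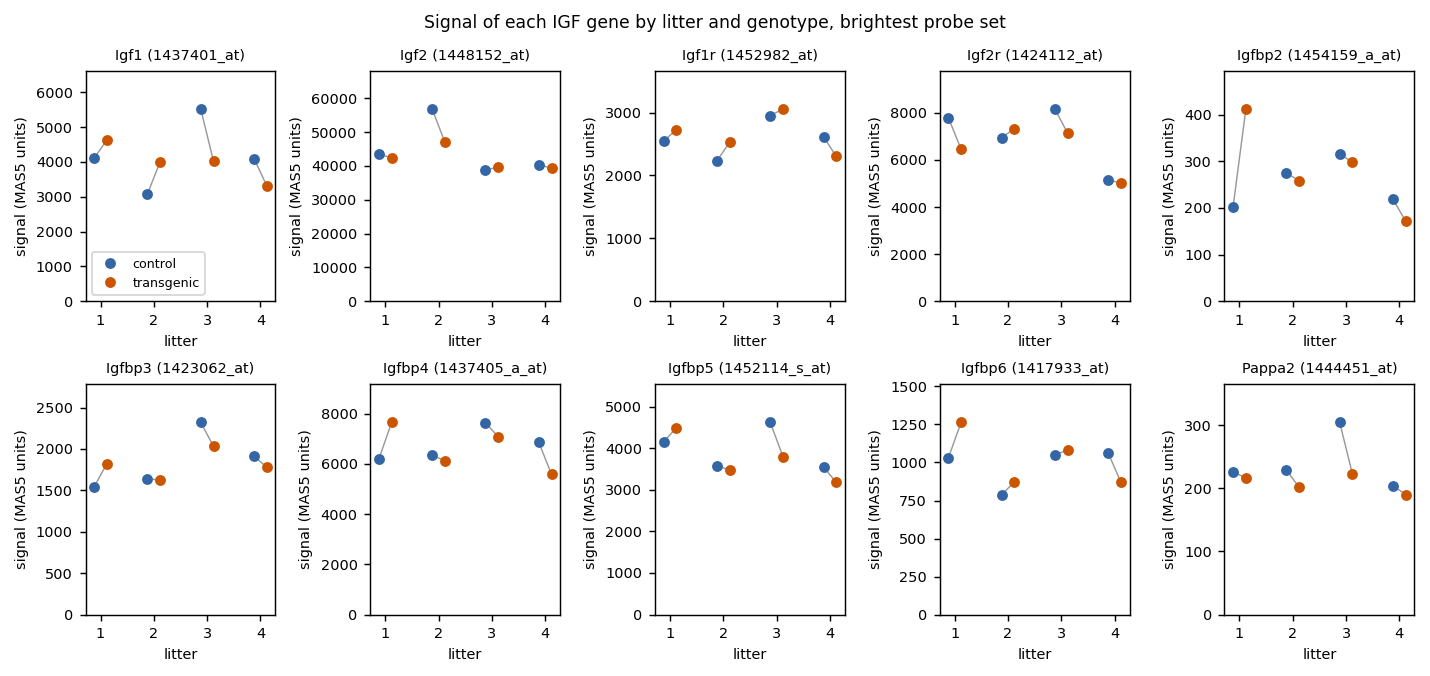
Signal (MAS5 units, linear axis from 0) of the brightest probe set of each of the 10 IGF genes in every sample, by litter, with control samples in blue, transgenic samples in orange and a grey line joining both samples of a litter. In each panel the control and transgenic signals overlap, and the lines slope both ways except for Pappa2, which was lower in the transgenic sample of each litter.

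Igf1, the ligand that carries the growth signal of growth hormone, was read by 4 probe sets. On 1437401_at the signals were 4109, 3080.3, 5518 and 4097 in control and 4631, 4011, 4017 and 3312 in transgenic samples of litters 1 to 4. The ratio of transgenic to control was thus 1.13, 1.3, 0.728 and 0.809 in litters 1 to 4, above 1 in litters 1 and 2 and below 1 in litters 3 and 4. Means were 4201 ± 1001 (SD, n = 4) and 3993 ± 539, a difference of -0.053 log2 (SE 0.16) with a 95% interval from 0.759-fold to 1.22-fold. The same split of litters was seen on the other Igf1 probe sets, with ratios of 1.05, 1.1, 0.721 and 0.699 on 1434413_at, 1.11, 1.12, 0.724 and 0.899 on 1419519_at and 1.17, 1.16, 0.85 and 0.928 on 1452014_a_at. Their differences were -0.19 log2 (SE 0.16), -0.076 log2 (SE 0.16) and 0.024 log2 (SE 0.13), and 0 of the 4 passed. All 4 read the same gene in the same samples. The split was not limited to Igf1. Among the tested probe sets it was also seen on Igfbp3 1458268_s_at and on Igfbp4 1423756_s_at, 1423757_x_at and 1421992_a_at.

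Igf2, the fetal ligand, was read by 2 probe sets. On 1448152_at the signals were 43535, 56826, 38893 and 40337 in control and 42376, 46958, 39578 and 39376 in transgenic samples. Both samples of litter 2 lay above all others. The genotype means were 44898 ± 8185 (SD, n = 4) and 42072 ± 3533, a difference of -0.081 log2 (SE 0.12) and a 95% interval from 0.794-fold to 1.13-fold. On 1415931_at the control signals were 2269.8, 4296, 2484 and 1155 and the transgenic ones 1679.9, 4033, 1941 and 1519.8. Again litter 2 was highest in both genotypes, and litter 4 was lowest in both. The ratios within litters were 0.74, 0.939, 0.781 and 1.32, and the difference of -0.12 log2 (SE 0.35) had a 95% interval from 0.543-fold to 1.56-fold. With litter as a block the SE fell to 0.12 and the interval to 0.77-fold to 1.1-fold.

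Igf1r, the signalling receptor, had 5 probe sets that did not move alike. On the brightest, 1452982_at, signals were 2547, 2233, 2952 and 2617 in control and 2729, 2529.5, 3056 and 2303 in transgenic samples. These values interleave, with a difference of 0.036 log2 (SE 0.12) and a 95% interval from 0.855-fold to 1.23-fold. On 1426565_at the control signals were 1406, 1300.1, 1389 and 698 and the transgenic signals 1208, 1236, 981 and 618. Here the transgenic sample was the lower in each of the 4 litters, at ratios of 0.859, 0.951, 0.706 and 0.885, and both samples of litter 4 were far below the rest. The difference was -0.24 log2 (SE 0.25) and did not pass. With litter as a block it had an SE of 0.096 and a 95% interval from 0.734-fold to 0.98-fold (limma unadjusted p = 0.0291, adjusted p = 0.9998), the only one of the 25 intervals with the block that left out 1. On 1428967_at and 1446303_at the differences had the other sign, 0.098 log2 (SE 0.17) and 0.11 log2 (SE 0.14), each with ratios above 1 in litters 2, 3 and 4. The remaining probe set, 1452108_at, gave signals between 39.2 and 72.5 and was under the filter.

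Igf2r encodes the receptor that clears Igf2 and also sorts mannose 6-phosphate-tagged enzymes, an imprinted gene in mice. On 1424112_at it gave 7802, 6943, 8161 and 5164 in control and 6448, 7329.5, 7127 and 5008 in transgenic samples. Litter 4 was lowest in both genotypes, and the genotypes differed by -0.11 log2 (SE 0.16). On 1424111_at the signals ran from 4993 to 6918, with a difference of -0.12 log2 (SE 0.11) and ratios of 0.767, 0.943, 1.14 and 0.873. Neither passed, and the intervals ran from 0.735-fold to 1.17-fold and from 0.783-fold to 1.08-fold.

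Among the binding proteins, Igfbp2, a form abundant in fetal tissue, had signals of 202, 275, 316 and 218 in control and 412, 258, 298 and 171 in transgenic samples. The 2.04-fold excess in litter 1 was not seen in litters 2, 3 and 4, where the ratios were 0.941, 0.941 and 0.785. The difference of 0.12 log2 (SE 0.23) had a 95% interval from 0.767-fold to 1.54-fold. Igfbp3, the main carrier of IGFs in blood, gave 1541, 1641, 2321 and 1910.0 in control and 1823, 1623, 2032 and 1781 in transgenic samples on 1423062_at. Its difference was -0.017 log2 (SE 0.14), and that of 1458268_s_at was -0.076 log2 (SE 0.20). The ranges overlapped on both.

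Igfbp4 encodes an inhibitor of IGF action that the protease PAPP-A, the Pappa product, cuts. On its brightest probe set, 1437405_a_at, it gave 6191, 6357, 7635 and 6854 in control and 7651, 6115, 7079 and 5581 in transgenic samples. The transgenic sample was higher in litter 1 and lower in litters 2, 3 and 4, and the difference was -0.039 log2 (SE 0.12). On 1421991_a_at, the dimmest, the signals were 236, 126, 319.9 and 21.2 and 328, 182, 220.3 and 71.5. Both samples of litter 4 were under the signal used as filter, and the difference of 0.38 log2 (SE 0.55) had the widest interval of the 25, from 0.569-fold to 2.98-fold. Differences on the other 4 Igfbp4 probe sets lay between -0.15 log2 on 1421992_a_at and 0.043 on 1437406_x_at.

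Igfbp5, which binds matrix as well as IGFs and is cut by the Pappa2 protease, gave 4156, 3578, 4620.1 and 3539.6 in control and 4488, 3473, 3796 and 3182 in transgenic samples on 1452114_s_at. Litter 4 was the lowest in each genotype, and the difference was -0.092 log2 (SE 0.13). On 1422313_a_at it was -0.078 log2 (SE 0.28), with signals from 109.8 to 363. Igfbp6, which prefers Igf2 as its ligand, gave 1030.1, 788, 1052 and 1062 and 1264, 872, 1081 and 869. Its transgenic signal was higher in litters 1, 2 and 3 and lower in litter 4, a difference of 0.047 log2 (SE 0.15). Pappa2 gave 226, 229, 304 and 204 in control and 216, 201, 222 and 189.9 in transgenic samples. It was lower in the transgenic sample of every litter, at ratios of 0.954, 0.878, 0.731 and 0.931, and the difference of -0.19 log2 (SE 0.16) did not pass (limma adjusted p = 0.9999). Of the 25 probe sets, 2 had the same sign in all 4 litters, this one and 1426565_at of Igf1r, against 10.6% of all tested.

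The intervals give the size of change in array signal that the fit leaves possible, for each probe set taken by itself. Whether signal rises in step with the amount of RNA was not tested, so the intervals do not bound the change in RNA. For Igf2 the highest litter mean was 3.11-fold above the lowest on 1415931_at and 1.32-fold on 1448152_at. Without the litter in the model, 24 of the 25 intervals lay within 2-fold in either direction and 19 within 1.5-fold, with a median half-width of 0.34 log2. Adding the litter as a block made the SE smaller for each of the 25 probe sets, 25 intervals lay within 2-fold and 24 within 1.5-fold, and the median half-width was 0.24.

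**Figure D2:**
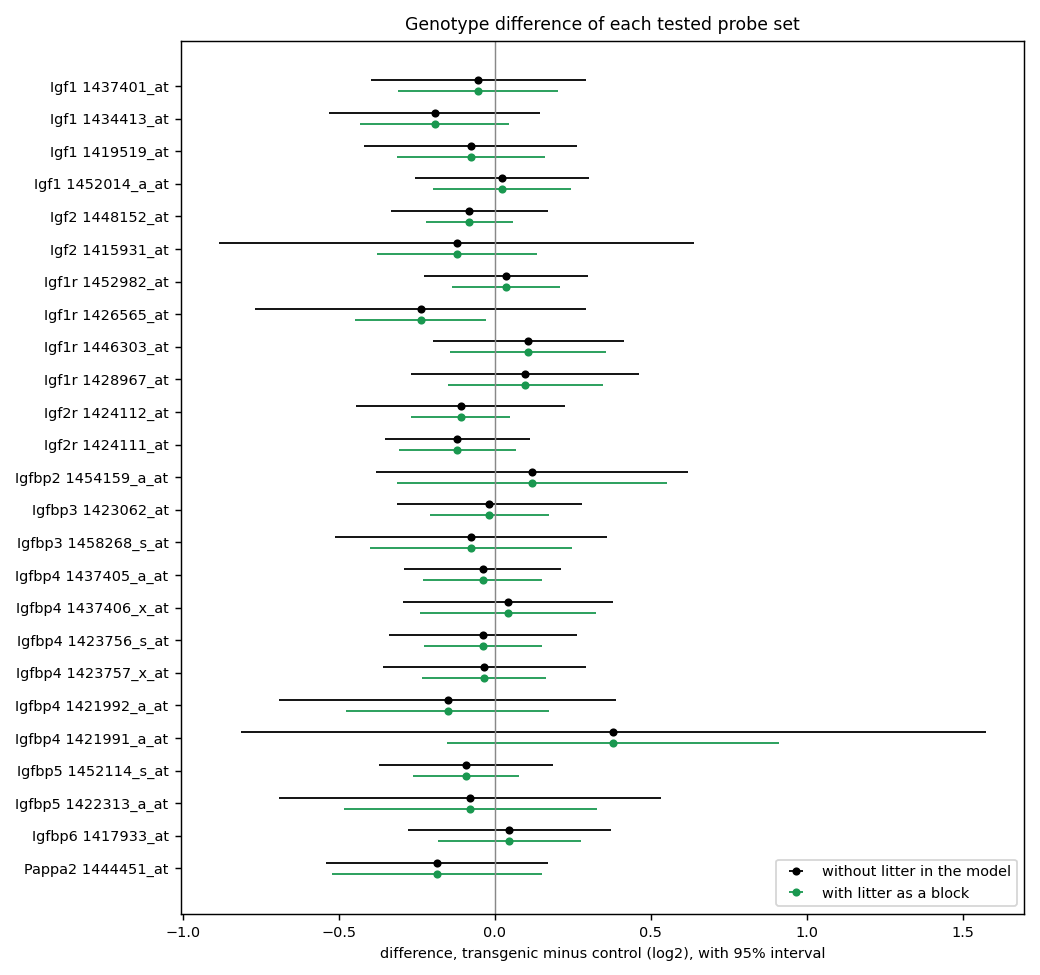
Fitted difference of each of the 25 tested probe sets, transgenic minus control in log2 units, with 95% intervals, without the litter in the model (black) and with litter as a block (green). The intervals without the litter all span 0, and with the block that of Igf1r 1426565_at alone, of the 25, does not.

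Litters were then compared with genotype in the model, by limma's moderated F-test over the 4 litters. It passed for 5 of the 25 probe sets (20%), against 9.07% of all tested, and 14 had an unadjusted p under 0.05 (56%), against 27.8%. The 5 belong to Igf2 (both probe sets), Igf1r, Igf2r and Igfbp4. Each litter has 2 samples, 3 residual degrees of freedom remain, and limma shares the spread between probe sets along an intensity trend. Without that trend 0 of 25 and 0 of all probe sets passed, and 7 of 25 and 4914 of all had an unadjusted p under 0.05. Leaving out litter 4 left 1 of 25 beside 1123 of all probe sets, against 5 and 2041 with all arrays. Leaving out litter 2 left 3 beside 562, and leaving out control replicate 3 left 3 beside 794. There were 9 beside 3064 of all without litter 1, and 9 beside 1825 without control replicate 4. Leaving out litter 4 gave adjusted p-values of 0.72 for Igf1r 1426565_at, 0.752 for Igf2r 1424112_at and 0.164 for Igfbp4 1421991_a_at. Igf2 1448152_at lost its call in 10 of the 12 fits without 1 array or litter.

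Igf2 was high in litter 2. On 1415931_at the mean of both samples was 1975, 4165, 2212 and 1338 in litters 1 to 4, so that the highest litter was 3.11-fold above the lowest. Litter 2 lay 1.21 log2 (SE 0.14, adjusted p = 0.000374 by limma) from the mean of the other litters, and litter 4 lay -0.97 log2 (SE 0.14, adjusted p = 0.00189) from it. The F-test had an adjusted p of 0.000952, and of 0.112 without the trend. Litters 1 and 3, at 1975 and 2212, were neighbours whose samples interleave. Without litter 2 the F-test had an adjusted p of 0.113 and litter 4 lay -0.64 log2 from the others (adjusted p = 0.0578). Without control replicate 2 the excess of litter 2 was 1.23 log2 (adjusted p = 0.0536), and without control replicate 4 litter 4 lay -0.63 log2 from the others (adjusted p = 0.02).

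On the brighter Igf2 probe set, 1448152_at, the litter means were 42955, 51892, 39236 and 39857. Litter 2 lay 0.35 log2 (SE 0.074, adjusted p = 0.02) from the others, and litters 1, 3 and 4 were not called. The F-test had an adjusted p of 0.0436. Without control replicate 2 the excess of litter 2 was 0.22 log2 (adjusted p = 0.245). After quantile normalization, which gives all arrays the same distribution, the excess of litter 2 was 0.11 log2 and the F-test no longer passed (adjusted p = 0.184), while on 1415931_at the excess was 1.24 log2 and passed. The largest signal of any probe set was 65244 on the control array and 58287 on the transgenic array of litter 2, and between 51568 and 59598 on the other arrays. The part of these maxima in the Igf2 difference was not tested.

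In litter 4 the calls were all towards lower signal, in the fit with the intensity trend. The means on Igf1r 1426565_at were 1307, 1268, 1185 and 658 in litters 1 to 4, and litter 4 lay -0.90 log2 (SE 0.11, adjusted p = 0.000976) from the others. On Igf1r 1452982_at the same means were 2638, 2381, 3004 and 2459.6, with litter 4 at -0.11 log2 (SE 0.092, adjusted p = 0.478). The probe sets of this 1 gene thus gave unequal litter differences. For Igf2r the mean of 1424112_at was 5086 in litter 4 and 7125 to 7644 in the other litters, a difference of -0.52 log2 (SE 0.084, adjusted p = 0.00429). Its other probe set, 1424111_at, stood at -0.16 log2 (SE 0.099, adjusted p = 0.359).

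The Igfbp4 probe sets also gave unequal values. On 1421991_a_at the litter 4 signals, 21.2 in control and 71.5 in transgenic, were both under the signal of 110.4 used as filter. Their mean was 46.3 against 154 to 282 in the other litters, a difference of -1.95 log2 (SE 0.28, limma adjusted p = 0.00231). On 1421992_a_at it was -0.72 log2 (SE 0.17, adjusted p = 0.0243), although the F-test itself did not pass there (adjusted p = 0.0506). This litter 4 value ran from -1.15 log2 without control replicate 4 to -0.30 without transgenic replicate 4 (adjusted p = 0.385), and it passed in 16 of 22 other settings. The bright probe set 1437405_a_at had litter means of 6921, 6236, 7357 and 6218, with litter 4 at -0.14 log2 (SE 0.10, adjusted p = 0.438).

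Over all 25 probe sets, 23 had a lower value in litter 4 than the mean of the other litters, with a median of -0.25 log2, beside 49.2% and a median of 0.0058 over all tested. Of these, 5 passed as lower, where 5.58% of all tested did, and 0 passed as higher, where 3.28% did. In litter 3 the median was 0.26 log2 and 21 of 25 were higher, beside 48.7% and a median of -0.0074 over all tested, but 0 passed, against 1.47% of all. By the brightest probe set of each gene, 9 of 10 genes were lower in litter 4 and 9 of 10 higher in litter 3. In litter 2 the Igf2 probe sets were the 2 called as higher, against 3.62% of all tested, and 0 were called as lower, against 2.37%. In litter 1 none of the 25 and none of all tested probe sets was called.

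**Figure D3:**
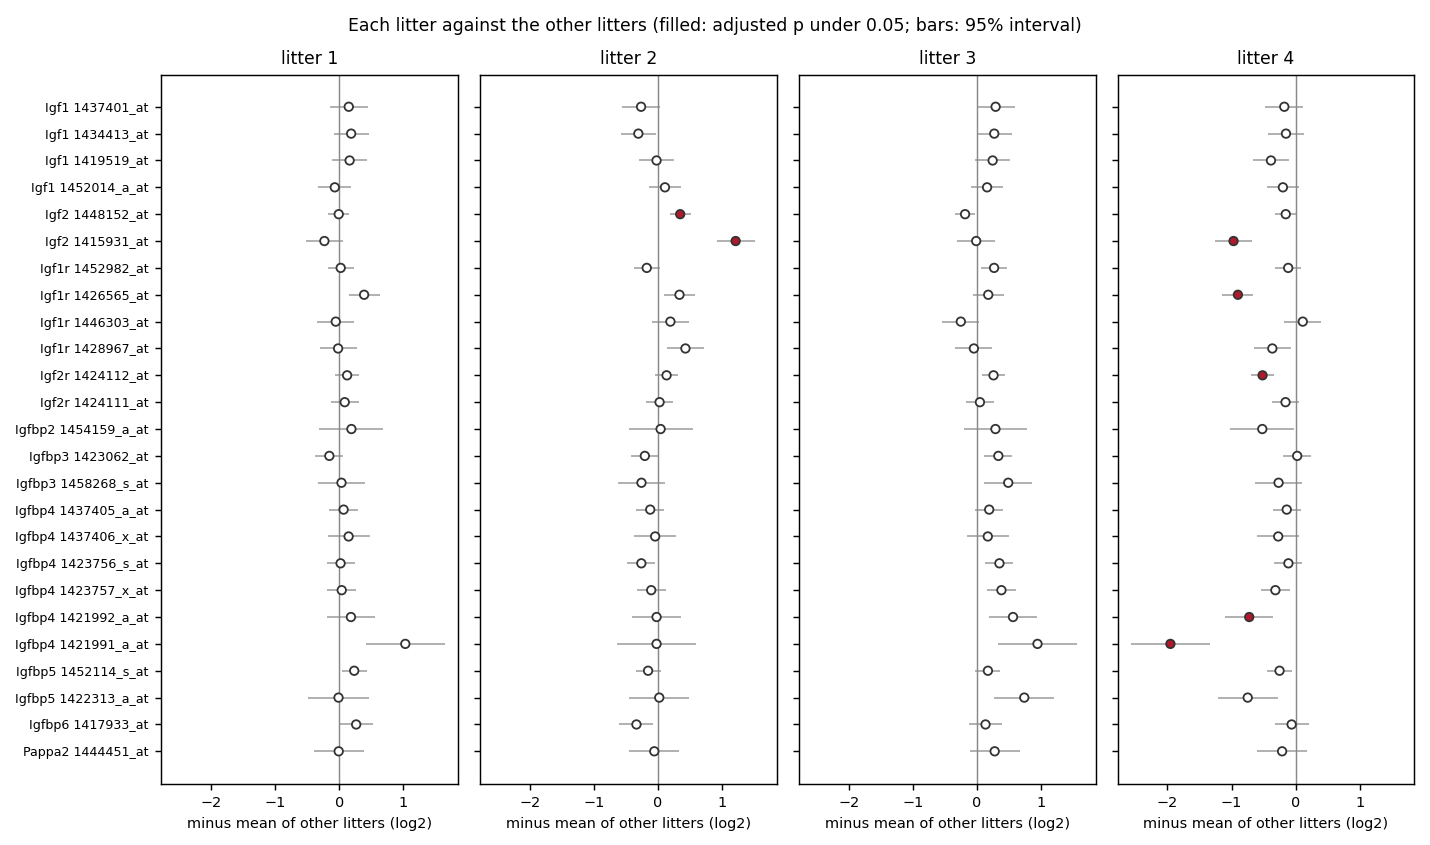
Each litter against the mean of the other litters in log2 units for the 25 tested probe sets, with 95% intervals; filled points have an adjusted p under 0.05 by limma with the intensity trend. Igf2 stands to the right in litter 2, and 5 probe sets of Igf2, Igf1r, Igf2r and Igfbp4 stand to the left in litter 4.

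The litters also differed in RNA integrity and in markers of other cells. Litter 4, where 23 of the 25 IGF probe sets were lower, had the lowest 5-prime to 3-prime ratios of both control transcripts. Litter 3, where 21 of the 25 were higher but 0 passed, had the highest. Each litter was set against the mean of the others, so a low litter 4 by itself raises the value of litter 3. Summed over the 8 chondrocyte markers, the signal was 212766, 248329, 193530.0 and 185056 in control litters 1 to 4. In transgenic litters 1 to 4 it was 204187, 216812, 197903 and 182893. This sum was highest in litter 2 and lowest in litter 4 of both genotypes. The markers did not move alike. Hapln1 had its highest litter mean, 26744, in litter 4, and Col2a1 and Col9a1 were lowest in litter 3, at 39876 and 42641. The other chondrocyte markers were lowest in litter 4. The 8 skeletal muscle markers summed to 24489.6, 15975, 18801 and 22736 and 24135, 15684, 19115 and 21039.9, lowest in litter 2. Myog had its lowest litter mean, 681, in litter 3 and Myod1, at 235, in litter 4. The other muscle markers were lowest in litter 2. The 8 perichondrium and fibroblast markers summed to between 179350.0 (litter 1) and 197225 (litter 3) in control samples. In transgenic samples the sum lay between 163510.0 (litter 4) and 189636 (litter 1). Col1a1 and Col1a2 were lower in litter 4, at -0.48 and -0.35 log2 from the other litters, both past the threshold. Dcn, Lum and Aspn were higher there, and none of them passed. The 4 of 5 hypertrophic chondrocyte markers measured summed to 12362, 14789, 9742 and 9411 and 13119, 13174, 11201 and 8944, lowest in litter 4. The sums of macrophage markers (756 to 1452 over 6) and endothelial markers (771 to 1322 over 5) were also lowest in litter 4 of each genotype. For macrophage markers the control sums of litters 2 and 4 were close, at 1017 and 1011. Lyz2, with litter means of 245, 192, 183 and 260, and Cd68 were not lowest in litter 4, while the other macrophage markers were. The 6 neutrophil markers ran the other way, summing to 4614, 1830.0, 2563 and 5560.0 in control and 2725, 1788, 2547 and 3602 in transgenic samples, highest in litter 4 and lowest in litter 2 of both genotypes. Of these, S100a8 and S100a9, which encode the calprotectin subunits, lay 0.78 and 0.98 log2 above the other litters in litter 4, and -1.09 and -0.99 log2 from them in litter 2, all past the threshold. Sums of 5 osteoblast markers lay between 1567 and 2569, lowest in litter 4 for transgenic and in litter 1 for control samples. Sums of the 4 erythroid markers measured lay between 2315 and 4648, lowest in litter 3 of both genotypes. Most of this sum was Alas2, with a mean signal of 3454. Hba-a1 and Epb42 were under the filter. The part of RNA integrity or of cell makeup in the litter differences of the IGF genes was not tested.

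**Figure D4:**
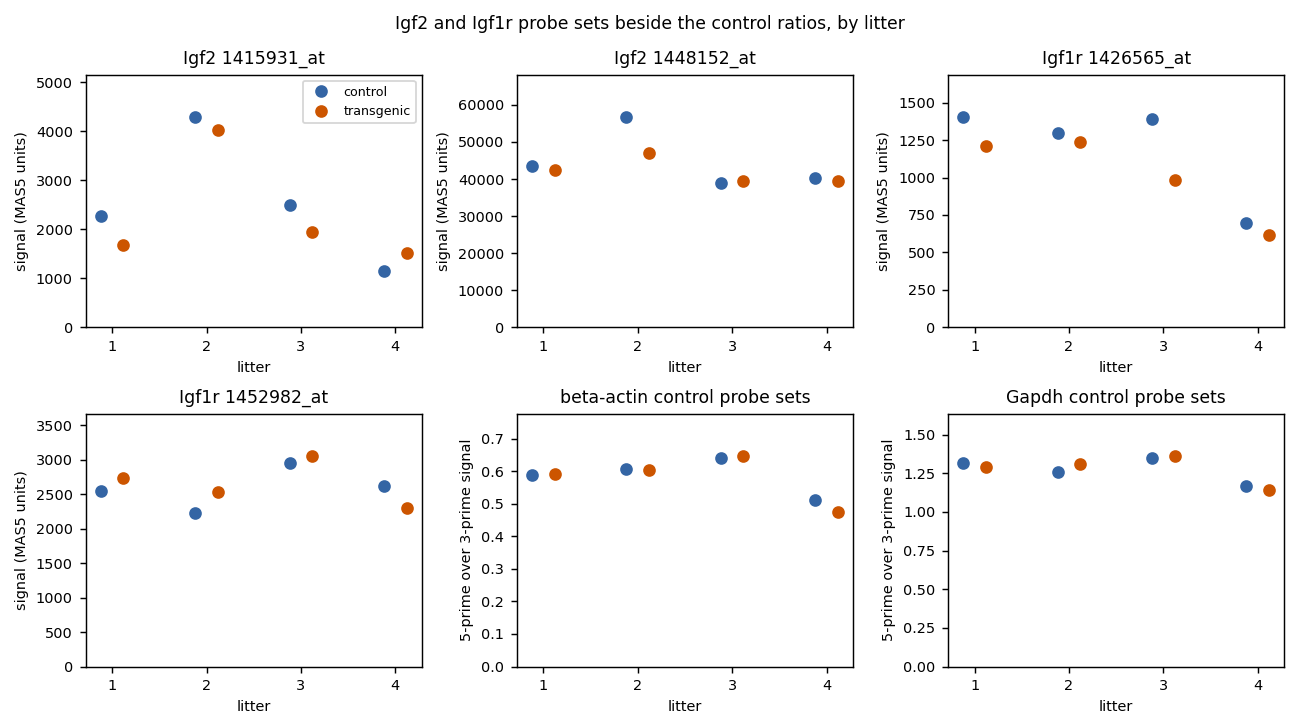
Signals (MAS5 units, axes from 0) of 2 Igf2 and 2 Igf1r probe sets beside the 5-prime over 3-prime signal ratios of the beta-actin and Gapdh control probe sets, by litter, with control samples in blue and transgenic samples in orange. Litter 4 is lowest in both ratios, on Igf1r 1426565_at and on Igf2 1415931_at in each genotype. On Igf1r 1452982_at it is lowest among transgenic samples only, and the control sample of litter 2 is the lowest of all 8. Litter 2 is highest on both Igf2 probe sets.

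The genes whose pattern was most like a member were looked up for the 2 genes whose brightest probe set passed the litter test, by Pearson correlation of log2 values over the 8 arrays, among 10979 genes with 1 probe set each. Nearest to Igf2 were Rpl41, a ribosomal protein gene, at r = 0.988, Galt, which acts in galactose metabolism, at 0.982, and Plagl1, an imprinted zinc finger gene, at 0.981. The Rpl41 and Plagl1 probe sets had mean signals of 45112 and 39997, toward the upper end of the scale as for Igf2. Nearest to Igf2r were Ptpn11, a phosphatase gene of growth factor signalling, at 0.983, Fam120a at 0.97 and Fry at 0.968. Spearman's rho was between 0.905 and 0.976 for these 6 genes. The values are descriptions over 8 arrays that share litters and scaling, picked as the highest of many.

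The rest of the pathway was read from a list of 38 genes of IGF release, receptors, adaptors and downstream kinases, of which 34 had a probe set with 1 symbol and 29 were tested by their brightest probe set. Between genotypes 0 of 29 passed, without or with litter as a block, and 14 were higher and 15 lower in transgenic samples with a median of -0.00087 log2. The largest positive differences were those of Htra1, a serine protease gene, at 0.17 log2 (SE 0.17) and of Irs1, the adaptor of the IGF receptor, at 0.073 (SE 0.094). The largest negative ones were those of Insr, the insulin receptor gene, at -0.19 (SE 0.13) and of Igf2bp1, an RNA-binding protein gene, at -0.17 (SE 0.19).

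Between litters 5 of these 29 passed the F-test, again on the fit with the intensity trend and beside 9.07% of all tested. Stc2, whose product inhibits the PAPP-A proteases, had means of 1644, 1503, 925 and 1030.2 in litters 1 to 4 (limma adjusted p = 0.00589). Gigyf1, named for its binding to the IGF receptor adaptor Grb10, had 1018, 1272, 613 and 722 (adjusted p = 0.00281). Both were higher in litters 1 and 2 than in litters 3 and 4. Lrp1, a large endocytic receptor gene, had 4243, 3695, 3973 and 2759 (adjusted p = 0.014). The forkhead factors that IGF signalling keeps out of the nucleus had 1461, 1418, 1188 and 1003 for Foxo1 (adjusted p = 0.0341) and 2768, 2925, 2760.2 and 2110.5 for Foxo3 (adjusted p = 0.0496). Lrp1, Foxo1 and Foxo3 were lowest in litter 4.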

How the data were processed

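Each of the 8 samples was read on 1 Affymetrix array from biotin-labelled total RNA. The authors deposited linear intensity signals, 1 for each probe set; MAS5 is named in the submitters' processing notes, without a version. The 2% trimmed mean was 500.0 on each array, so arrays had been scaled to 1 target, and medians lay between 107 and 121. The small number of arrays sets the precision.

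Probe sets were named from the platform annotation, and 64 control probe sets were left out. An offset of 22.2 (20th percentile of all signals) was added before log2, which understates differences of dim probe sets. The filter kept mean signals from 110.4 upward (their median). Tests used limma 3.58.1 under R 4.3.3 with an intensity trend, two-sided, with Benjamini-Hochberg adjustment over 22495 probe sets and a threshold of 0.05. The genotype fit took all 8 arrays without covariates, and the litter fit had genotype as covariate. The fits were tested on simulated data with 100 of 22495 probe sets changed. Of 2-fold changes the genotype fit recovered 62% without and 77% with the litter block, and the litter F-test 39%. Of 4-fold changes they recovered 97%, 97% and 76%. A 2-fold change could thus be missed. Alternatives were other offsets, filters, normalizations and variance priors, array weights, the litter block and leaving out arrays or litters.

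The labels tie each replicate number to a litter, which pairs the samples. Deviations from group means of same-numbered samples correlated at 0.0253, 0.435, 0.376 and 0.38 for replicates 1 to 4, so that the pairing was not seen for replicate 1.

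Genes, lists and tests were chosen with earlier results of these data known. Every probe set of the 10 genes could be named; of the pathway list, those past a threshold or the 2 largest differences in each direction; and of genes most alike, the 3 highest correlations. Promoter windows came from a RefSeq table of build GRCm38.p6, which held all 10 genes.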

Additional observations from a re-analysis of the deposited data

Results flagged for a closer look

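Within each genotype, the gap between the highest or lowest of the 4 samples and its neighbour was divided by the range of that group, for the 26 IGF probe sets and Hoxc8. Of 54 groups, 6 had a sample past the 95% critical value, where chance gives about 2.7. For Igf2 on 1415931_at it was transgenic replicate 2 at 4033, with the next sample at 1941. Control replicate 4 stood apart on Igf1r 1426565_at at 698, with the next at 1300.1. Control replicate 3 was high on 3 probe sets, at 2906 on Igfbp4 1423757_x_at (next 2239.8), at 1529.6 on Igfbp4 1421992_a_at (next 1015) and at 339 on Igfbp5 1422313_a_at (next 217). For Igfbp6 control replicate 2 was low at 788, with the next at 1030.1.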

How the results depend on the processing

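Under 23 other settings, with litter as a replicate block among them, 0 of the IGF probe sets and 0 probe sets in all passed between genotypes, with a smallest adjusted p of 0.9998 for the IGF probe sets. The block changed no call. Without the trend 391 of all probe sets had an unadjusted p under 0.05 between genotypes. Of 571 single values, 63, of 19 probe sets, had the opposite sign to the main fit, none of them past the threshold in either fit. With array weights the values were 0.090 log2 on Igfbp3 1423062_at, 0.084 log2 on Igfbp3 1458268_s_at, 0.072 log2 on Igfbp4 1437405_a_at, 0.055 log2 on Igfbp4 1423756_s_at, 0.068 log2 on Igfbp4 1423757_x_at, 0.040 log2 on Igfbp4 1421992_a_at and 0.10 log2 on Igfbp5 1422313_a_at, and with median centring 0.0074 on Igfbp3 1423062_at. The other sign changes came from leaving out 1 array or litter. These values ran from -0.042 to 0.11 on Igf1 1452014_a_at, -0.14 to 0.038 on Igf2 1448152_at, -0.45 to 0.18 on Igf2 1415931_at, -0.034 to 0.11 on Igf1r 1452982_at and -0.059 to 0.16 on Igfbp6 1417933_at. They ran from -0.20 to 0.088 on Igf1 1437401_at, -0.16 to 0.051 on Igf1 1419519_at, -0.10 to 0.096 on Igfbp3 1423062_at, -0.21 to 0.12 on Igfbp3 1458268_s_at and -0.15 to 0.047 on Igfbp4 1437405_a_at. They ran from -0.12 to 0.068 on Igfbp4 1423756_s_at, -0.13 to 0.098 on Igfbp4 1423757_x_at, -0.31 to 0.14 on Igfbp4 1421992_a_at, -0.29 to 0.22 on Igfbp5 1422313_a_at and -0.018 to 0.20 on Igf1r 1428967_at. They ran from -0.23 to 0.76 on Igfbp4 1421991_a_at, -0.16 to 0.32 on Igfbp2 1454159_a_at, -0.095 to 0.26 on Igfbp4 1437406_x_at and -0.25 to 0.0093 on Igf2r 1424112_at. The number of probe sets past the litter test was 2041; it was 995 without a filter, 0 without the trend and 548 to 3064 when 1 array or litter was left out. Of the IGF probe sets, 5 passed it; the count was 8 with median centring, 0 without the trend and 1 to 9 when 1 array or litter was left out. The causes were not tested. Dim probe sets, such as those of Igfbp2 and Pappa2, drop out with a filter at a mean signal of 300.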
